A study of Homo sapiens with 20 samples.

Results

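The genes described here are 10 circadian clock genes, PER1, PER2, PER3, CRY1, CRY2, NR1D1, NR1D2, DBP, TEF and BHLHE40, taken by name from the 20033 protein-coding genes of the annotation. They were listed because their promoters are known for E-boxes, the CACGTG-type sites that clock factors share with MYC. Chromatin immunoprecipitation followed by sequencing (ChIP-seq) had been done for MYC and for RNA polymerase II (POL2) in PC-3, an established prostate cancer epithelial line. Wild-type (WT) cells were compared with cells lacking the kinase SLK (SLK-KO, also called PSD10 in the labels), with 3 libraries per antibody and genotype. Both genotypes had the same culture and no treatment, and the labels name neither a synchronising step nor a circadian time. Whether the SLK-KO cells are a single clone is not given in the sources used here. The replicates are called biological, so p-values measure the spread between these cultures only. Each of the 12 libraries had its own list of summits, the single bases at which the authors' peak caller placed the top of a peak.

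The clock is a feedback loop of transcription. CLOCK and BMAL1 bind E-boxes as a pair and drive the PER and CRY genes, whose proteins then repress that pair. The nuclear receptors NR1D1 and NR1D2 repress BMAL1, DBP and TEF are basic leucine zipper activators that bind D-boxes, and BHLHE40 is a repressor that itself binds E-boxes. MYC binds E-boxes as a pair with MAX.

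The lists differed in length. MYC lists held 365, 201 and 267 summits in WT and 1218, 1420 and 988 in SLK-KO. POL2 lists held 17126, 5047 and 9925 summits in WT and 19017, 15436 and 16298 in SLK-KO, so WT replicate 2 was the shortest. Sequencing depth is unknown, and a gene without a summit in a short list cannot be told apart from one whose peak was missed. The epithelial genes KRT8 and KRT18 carried POL2 summits near a transcription start site (TSS), at most 1 kb from it, in all 6 libraries and EPCAM in 4. The blood cell genes PTPRC and CD3E had none, and neither did the prostate luminal gene KLK3.

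The sequences that the MYC results turn on lie on chromosome 3. The first is the interval around the 4 MYC summits of NR1D2, at chr3:23945795-23945995 on the plus strand of GRCh38, with CACGTG and the related string CACGCG (read here as CGCGTG) in capitals. The second is the interval of 100 bases on either side of the only MYC summit within 1 kb of a BHLHE40 TSS. It is at chr3:4978813-4979013 on the plus strand, with CACGTT in capitals.
NR1D2 MYC site: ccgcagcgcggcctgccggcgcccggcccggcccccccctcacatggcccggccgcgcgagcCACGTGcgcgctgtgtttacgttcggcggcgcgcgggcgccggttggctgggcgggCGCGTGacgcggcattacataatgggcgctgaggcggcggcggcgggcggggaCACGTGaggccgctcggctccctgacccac
BHLHE40 MYC site: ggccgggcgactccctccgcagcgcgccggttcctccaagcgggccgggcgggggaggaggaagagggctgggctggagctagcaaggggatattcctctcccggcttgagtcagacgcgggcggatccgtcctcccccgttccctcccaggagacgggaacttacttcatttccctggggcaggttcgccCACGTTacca

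Other E-boxes of the same genes had no MYC summit nearby. Some of them are shown in the direction of transcription, with CACGTG in capitals, to set beside the NR1D2 site. For PER1, 1 string is shown near its upstream TSS and 1 near its canonical TSS. For PER2, PER3, NR1D1, DBP, TEF and BHLHE40, 1 string each is shown. Not every string is printed, since PER1 and TEF have 4 each within 1 kb of a TSS, DBP 3 and PER3 2. The DBP string shown lies in an intron, 2681 bp downstream of the canonical TSS.
PER1 upstream TSS, chr17:8156519-8156564: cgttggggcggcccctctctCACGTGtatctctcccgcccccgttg
PER1 canonical TSS, chr17:8152552-8152597: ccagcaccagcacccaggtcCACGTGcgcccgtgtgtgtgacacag
PER2, chr2:238289439-238289484: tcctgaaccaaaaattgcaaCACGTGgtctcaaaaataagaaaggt
PER3, chr1:7783901-7783946: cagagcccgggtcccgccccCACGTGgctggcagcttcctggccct
NR1D1, chr17:40101028-40101073: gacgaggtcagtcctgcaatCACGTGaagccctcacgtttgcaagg
DBP, chr19:48634676-48634721: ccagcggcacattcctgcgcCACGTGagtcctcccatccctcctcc
TEF, chr22:41381308-41381353: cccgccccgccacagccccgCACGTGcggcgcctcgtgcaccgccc
BHLHE40, chr3:4979172-4979217: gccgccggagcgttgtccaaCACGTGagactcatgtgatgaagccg

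CACGTG lay within 1 kb of an annotated TSS in 9 of the 10 genes, against 51.8% of coding genes. CRY2 was the exception, so the description of the genes as E-box promoters was not met there for this string. CRY2 did carry CACGTT, a variant found near a TSS in 8 of the 10 genes and in 58.4% of coding genes. Genes with many start sites have more sequence searched, from 2001 bp at NR1D1 to 14397 bp at PER1, against a median of 4620 bp. With the canonical TSS alone, 7 of 10 genes held CACGTG, against 29.2% of coding genes. CRY1 and DBP held it only near other annotated TSSs. The CRY1 string lay in an intron, 44028 bp downstream of the canonical TSS, and the DBP strings in introns, 2681 to 3708 bp downstream. In the 300-base RefSeq promoters (GRCh38.p14), CACGTG was present for PER1, NR1D2, TEF and BHLHE40 and in 7.26% of 35116 promoters. All motif searches covered both strands, and a match is only a match of letters.

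MYC summits were found at the promoters of 2 of the 10 genes, NR1D2 and BHLHE40. Over coding genes, 9.66% had a MYC promoter summit, meaning one within 1 kb of a TSS of the gene, in at least 1 of 6 libraries. The number of members with one was 0, 0 and 1 in the WT libraries and 2, 1 and 1 in the SLK-KO libraries. The means were 0.333 ± 0.577 and 1.33 ± 0.577 genes (SD, n = 3). Over coding genes, the share with a MYC promoter summit was 1.42% ± 0.395 for the WT libraries against 5.51% ± 0.861 for SLK-KO (SD, n = 3), so the share was also higher in SLK-KO over coding genes. No member had a summit in all 3 SLK-KO libraries and in no WT library. No MYC summit lay in the body of any member, more than 1 kb from its TSSs, in any library.

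NR1D2 (ENSG00000174738.13, chr3:23945286-23980617, plus strand) was the member with a MYC summit in both genotypes. It had one in WT replicate 3 and in all 3 SLK-KO libraries, a pattern of 3 SLK-KO and fewer than 3 WT libraries that 1.85% of coding genes shared. In WT replicate 3 the summit was at base 23945950, 664 bp downstream of the canonical TSS, with rank 184 of 267. In the SLK-KO libraries the summits were at bases 23945843, 23945947 and 23945841, with ranks 754 of 1218, 987 of 1420 and 451 of 988. The deposited scores, which are the authors' −log10 q, were 5.05 in WT replicate 3 and 4.99, 4.32 and 6.07 in the SLK-KO libraries. The ranks put the site in the middle or lower part of these lists. With lists cut to the same length, NR1D2 had a MYC summit in 1 WT and 0 SLK-KO libraries, and with a score of at least 5 in 1 and 1, so the pattern by genotype was not kept under either setting.

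The 4 summits spanned 109 bp of an intron and lay 171 to 280 bp from the nearest other TSS of NR1D2. Each had a CACGTG whose centre was 17 to 22 bp away. NR1D2 holds 3 CACGTG strings in 165 bp here, starting at bases 23945857, 23945966 and 23946016, and the first 2 are the capitals in the sequence printed above. Of all coding genes, 121 had at least 3 CACGTG strings in such a span within 1 kb of a TSS. NR1D2, whose strings set the span, was the only member among them. A D-box string, TTATGTAA, which occurred near a TSS in 20.9% of coding genes, also lay within 16 to 90 bp of the summits. The TSS of NKIRAS1, an antisense gene that encodes an inhibitor of NF-kappa-B signalling, overlaps this promoter and was 641 to 750 bp away, so the summits cannot be assigned to NR1D2 alone.

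**Figure D1:**
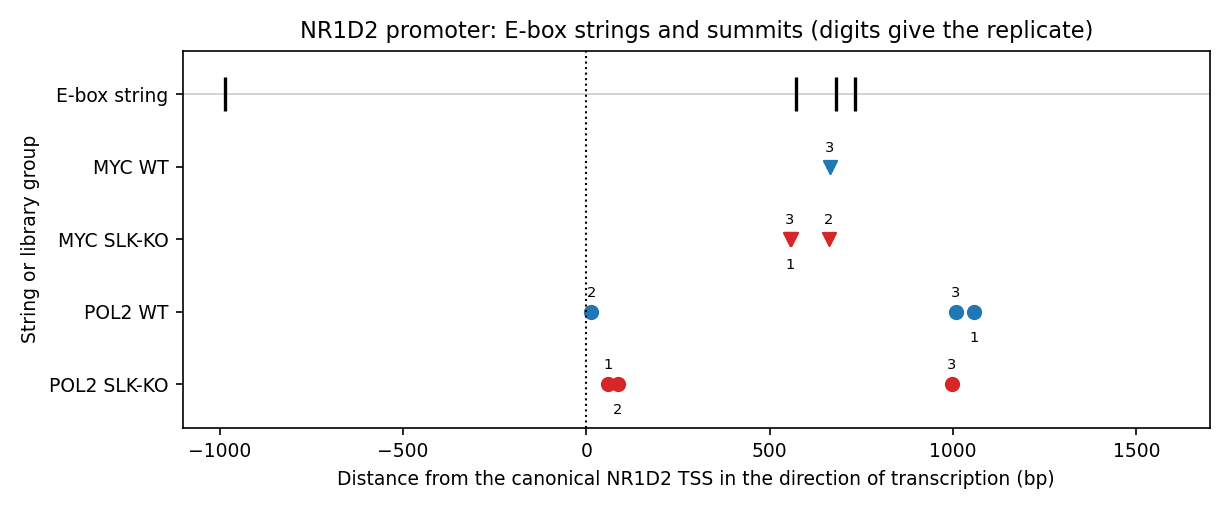
CACGTG E-box strings (top row) and MYC and POL2 summits of each genotype against the distance from the canonical NR1D2 TSS in bp, with digits giving the replicate. The 4 MYC summits lie in a span of 109 bp that overlaps the cluster of 3 strings, and the POL2 summits fall on either side of it.

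BHLHE40 (ENSG00000134107.5, chr3:4979437-4985323, plus strand) had a MYC promoter summit in SLK-KO replicate 1 only. It lay at base 4978913, 524 bp upstream of the TSS, with rank 884 of 1218 and a score of 4.08. The CACGTG shown above for this gene was 282 bp from the summit and CACGTT was 94 bp from it. This MYC summit therefore differed in its neighbourhood from those at NR1D2. In SLK-KO replicate 2 the nearest MYC summit was 1284 bp from a TSS of BHLHE40, outside the 1 kb window.

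Over all members, 4 of 5 MYC promoter summits had CACGTG within 100 bp, all 4 at NR1D2, against 1164 of 3527 (33.0%) over coding genes. These 4 are the same site in 4 libraries. Read from the strings, 57 CACGTG lay in the members' genes and promoters, 21 of them within 1 kb of a TSS. Of these 21, 3 had a MYC summit within 100 bp, all in the 1 cluster at NR1D2, against 3.20% of the CACGTG strings within 1 kb of a coding TSS. The other 8 members had their nearest MYC summit 15.0 kb away or farther, the closest being at DBP, followed by NR1D1 at 39.8 kb and PER1 at 92.9 kb in the library where it was nearest.

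POL2 promoter summits were found at 9 of the 10 genes. PER1, PER2, CRY1, NR1D2 and BHLHE40 had one in all 6 libraries, a state shared by 18.0% of coding genes. Of coding genes with POL2 in all 6 libraries, 29.1% had a MYC promoter summit in at least 1 library, and 35.7% of those that also held CACGTG. Among the 5 members, NR1D2 and BHLHE40 did. CRY2, NR1D1 and TEF had a POL2 summit in 3 SLK-KO and fewer than 3 WT libraries, as did 23.9% of coding genes. DBP had one in WT replicate 1 and SLK-KO replicates 1 and 3. PER3 had none, as did 46.3% of coding genes. No member had one in 3 WT and fewer SLK-KO libraries, a state of 0.205% of coding genes. The number of members with a POL2 promoter summit was 9, 5 and 7 in WT and 9, 8 and 9 in SLK-KO. The means were 7 ± 2 and 8.67 ± 0.577 genes (SD, n = 3). The shares of coding genes were 33.9% ± 14.2 and 47.1% ± 1.92, and WT replicate 2, with the shortest list, had the fewest members.

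**Figure D2:**
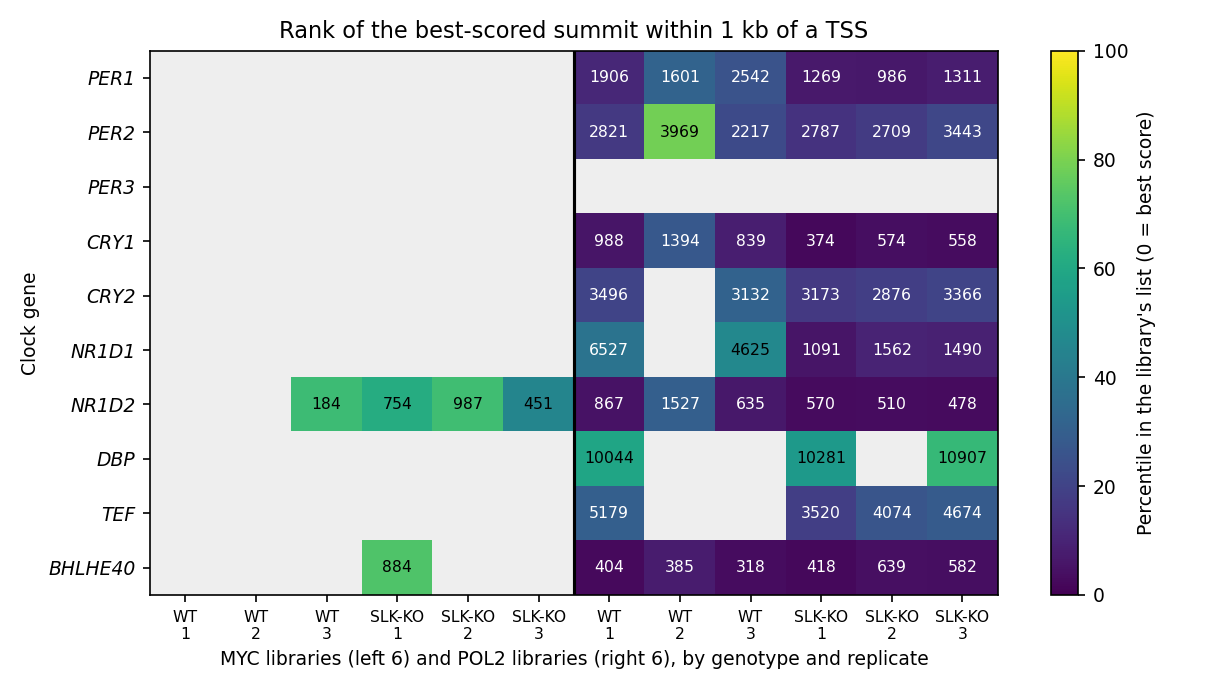
Percentile of the best-scored promoter summit of each clock gene in each library's own list (0 is best), for 6 MYC libraries on the left and 6 POL2 libraries on the right; empty cells have no summit within 1 kb of a TSS. MYC cells are filled only for NR1D2 and BHLHE40, and the POL2 cells of PER3 are empty.

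To compare genotypes, each gene's best POL2 promoter summit was ranked among the 3615 genes with one in all 6 libraries. The rank was given as a percentile with 0 for the best score. The same genes were thus ranked in every library, but short lists limit which genes are in the set. With 3 libraries against 3 the exact permutation test cannot give a p below 0.1. No gene had an unadjusted p under 0.05, and the smallest Benjamini-Hochberg adjusted p was 0.335. The groups did not overlap, with SLK-KO better, for 15.0% of the genes, and with WT better for 14.9%. Of the 5 members that could be ranked, 3 did not overlap with SLK-KO better (PER1, CRY1 and NR1D2), 1 did not with WT better (BHLHE40), and PER2 overlapped. None passed an adjusted threshold. The median difference over all genes was 0.083 percentile points. For MYC, 99 genes could be ranked in this way and none was a member.

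Among the repressors, PER1 (ENSG00000179094.16, chr17:8140472-8156506, minus strand) stood at percentiles 51.2, 42.9 and 60.8 in WT and 33.8, 26.4 and 35.0 in SLK-KO. The SLK-KO values were all better than the WT values. The means were 51.6 ± 8.94 and 31.7 ± 4.64 (SD, n = 3), a difference of -19.9 (exact permutation p = 0.1, adjusted p = 0.335). Its best POL2 summit was at the upstream TSS, at positions -3906 to -3885 bp from the canonical one, in all 6 libraries. A second summit lay 35 to 130 bp downstream of the canonical TSS in WT replicates 1 and 3 and in all SLK-KO libraries. PER1 thus had POL2 at 2 start sites, with the upstream one scored higher.

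PER2 (ENSG00000132326.13, chr2:238244044-238290102, minus strand) stood at 68.6, 87.8 and 54.6 in WT and 63.9, 61.9 and 72.4 in SLK-KO. The groups overlapped, with a difference of -4.27 (exact permutation p = 0.8, adjusted p = 0.911). Its summit was 671 to 713 bp downstream of the TSS in 5 libraries, whereas WT replicate 2 had its summits at 402 and -217 bp from the TSS. Without WT replicate 2 the difference was 6.15, so its sign rests on that library. PER3 (ENSG00000049246.15, chr1:7784291-7845177, plus strand) had no POL2 promoter summit, and its nearest POL2 summit was 12.9 to 125 kb away, although its promoter holds CACGTG.

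CRY1 (ENSG00000008405.12, chr12:106991364-107093549, minus strand) stood at 27.8, 37.1 and 23.1 in WT and 10.2, 15.9 and 15.4 in SLK-KO. The SLK-KO values were all better. The means were 29.3 ± 7.14 and 13.9 ± 3.14 (SD, n = 3), a difference of -15.4 (exact permutation p = 0.1, adjusted p = 0.335). The summits lay 48 to 82 bp downstream of the TSS, in the exon of the 5' UTR. CRY2 (ENSG00000121671.12, chr11:45847118-45883248, plus strand) had POL2 summits 17 to 56 bp downstream of the TSS, with rank 3496 in WT replicate 1, none in WT replicate 2 and rank 3132 in WT replicate 3. In SLK-KO the ranks were 3173, 2876 and 3366. The ranks of the genotypes overlapped. As percentiles in each list, which differ in length, they were 20.4 and 31.5 in WT and 16.7, 18.6 and 20.6 in SLK-KO. These overlapped as well, with WT replicate 3 the worst.

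**Figure D3:**
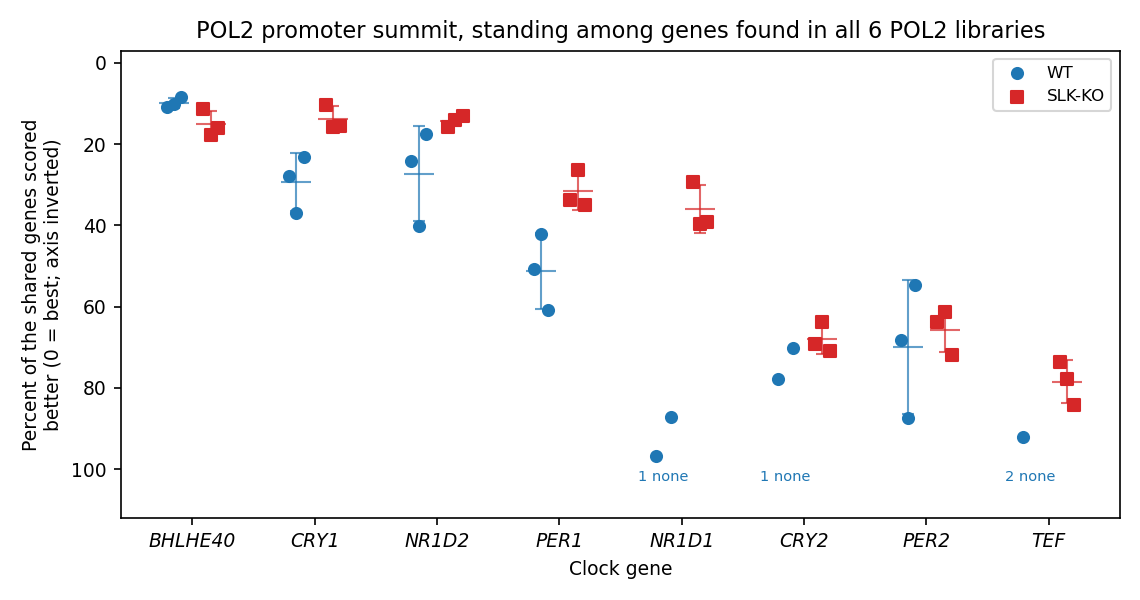
Standing of the best POL2 promoter summit of 8 clock genes (PER3, with no summit, and DBP are not drawn) among the genes with one in all 6 POL2 libraries, as the percent of these genes scored better (axis inverted, so higher is better), with circles for WT libraries, squares for SLK-KO libraries the mean with SD where there are 3 values, and the number of libraries with no summit otherwise. Of the genes drawn with 3 values per genotype, PER1, CRY1 and NR1D2 have all SLK-KO libraries above all WT libraries, and BHLHE40 the reverse. NR1D1, with 2 WT values, and TEF, with 1, also have all SLK-KO points above their WT points.

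Of the nuclear receptors, NR1D1 (ENSG00000126368.6, chr17:40092793-40100589, minus strand, overlapping the antisense gene THRA) showed the widest gap between genotypes in list rank among the members. Its best POL2 summit ranked 6527 in WT replicate 1, was missing in WT replicate 2 and ranked 4625 in WT replicate 3. In SLK-KO it ranked 1091, 1562 and 1490, although the lists of SLK-KO replicates 2 and 3 were shorter than that of WT replicate 1. All 3 SLK-KO ranks were better than both WT ranks. The summits were 43 to 169 bp downstream of the TSS, except that the best one of WT replicate 3 was 995 bp downstream and its other summit, 89 bp downstream, ranked 6254.

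Since NR1D1 had no summit in WT replicate 2, it could be ranked only without that library, a comparison chosen after seeing the data. Among the 6567 genes with a POL2 summit in the other 5 libraries, NR1D1 stood at 84.3 and 66.6 in WT and at 16.9, 23.9 and 23.3 in SLK-KO. The difference was -54.1 (exact permutation p = 0.1, adjusted p = 0.389), and 13 of the 6567 genes (0.198%) had a lower one. In this comparison 19.8% of genes had groups that did not overlap with SLK-KO better and 20.6% with WT better. Of the 7 members ranked, 4 (PER1, CRY1, NR1D1 and NR1D2) were of the first kind and BHLHE40 was of the second. The differences of PER1, CRY1, NR1D2 and BHLHE40 were -15.6, -6.41, -3.59 and 3.06, on a larger set of genes. Those of CRY1, NR1D2 and BHLHE40 were thus less than with all 6 libraries, by a factor of over 1.5.

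The NR1D1 promoter is shown because the gap in POL2 rank at this gene was the widest of the members. It is the RefSeq promoter at chr17:40100540-40100839 (GRCh38.p14, minus strand, printed in the direction of transcription), with CACGTT (read as AACGTG) and CACGCG (read as CGCGTG) in capitals. No CACGTG lies in it. The CACGTG closest to the TSS is the one printed above, 461 bp upstream of the TSS.
NR1D1 promoter: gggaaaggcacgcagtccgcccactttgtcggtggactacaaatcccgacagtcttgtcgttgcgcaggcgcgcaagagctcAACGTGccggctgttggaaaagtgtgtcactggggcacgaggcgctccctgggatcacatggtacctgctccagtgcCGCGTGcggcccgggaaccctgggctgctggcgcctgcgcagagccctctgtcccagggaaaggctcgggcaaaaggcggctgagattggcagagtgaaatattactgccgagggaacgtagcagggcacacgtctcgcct

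NR1D2 stood at 24.1, 40.4 and 17.4 in WT and 15.7, 14.1 and 13.0 in SLK-KO for POL2. All SLK-KO values were better, and WT replicate 2 was the worst. The means were 27.3 ± 11.8 and 14.3 ± 1.32 (SD, n = 3), a difference of -13.0 (exact permutation p = 0.1, adjusted p = 0.335). Its best POL2 summit was 13 to 86 bp downstream of the canonical TSS in WT replicate 2 and SLK-KO replicates 1 and 2, and 997 to 1056 bp downstream in the other 3 libraries. The second position was 162 to 221 bp from another TSS of NR1D2 and 249 to 308 bp from that of NKIRAS1. POL2 and MYC summits of one genotype were 336 to 651 bp apart, so the strongest POL2 and MYC positions did not coincide.

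Of the D-box factors, TEF (ENSG00000167074.15, chr22:41367333-41399326, plus strand) had a POL2 summit in WT replicate 1 with rank 5179 and in SLK-KO with ranks 3520, 4074 and 4674. The SLK-KO ranks were all better than the single WT rank, but the lists differ in length. As percentiles in each list they were 18.5, 26.4 and 28.7 in SLK-KO against 30.2 in WT, so SLK-KO replicate 3 was close to WT. The best summits lay 694 to 782 bp upstream of the canonical TSS, and in SLK-KO replicates 1 and 2 a CACGTG, the one printed above, was within 100 bp of them. DBP (ENSG00000105516.11, chr19:48630030-48637379, minus strand) had its best summits at ranks 10044 in WT replicate 1 and 10281 and 10907 in SLK-KO replicates 1 and 3, low in each list. Summits 832 to 854 bp upstream were 152 to 174 bp from the TSS of CA11, a carbonic anhydrase-related gene, so they cannot be assigned to DBP alone. A second summit at base 48634698 in WT replicate 1 lay within the CACGTG printed above for DBP, and one at base 48634713 lay beside it in SLK-KO replicate 3.

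BHLHE40 held the best standing of the members in WT, at 10.9, 10.1 and 8.40, against 11.4, 17.8 and 16.0 in SLK-KO. Here the WT values were all better. The means were 9.80 ± 1.27 and 15.1 ± 3.30 (SD, n = 3), a difference of 5.28 (exact permutation p = 0.1, adjusted p = 0.335). The summits were 63 to 123 bp downstream of the TSS in every library, and 587 to 647 bp from the MYC summit in the SLK-KO libraries. Its direction was opposite to that of PER1, CRY1 and NR1D2, but as a percentile in the whole list the difference was -1.09.

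**Figure D4:**
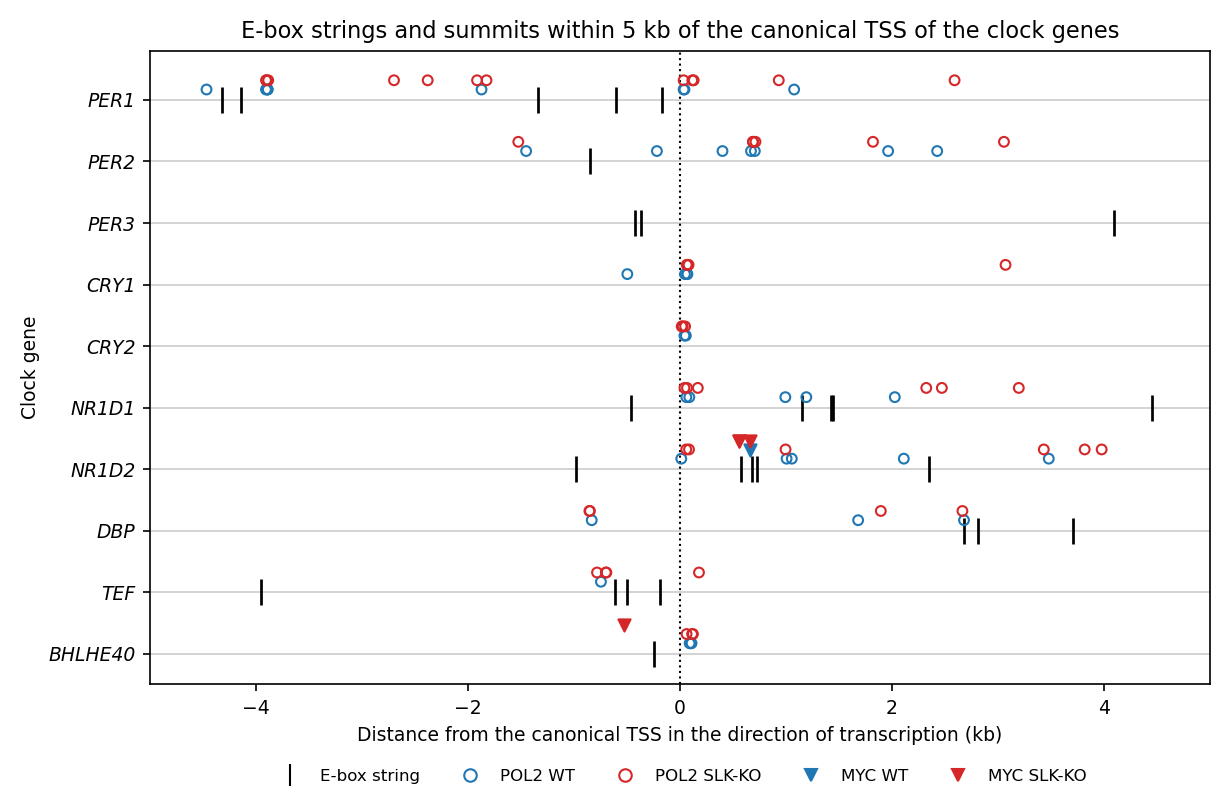
CACGTG E-box strings (bars) and MYC (triangles) and POL2 (circles) summits of each genotype within 5 kb of the canonical TSS of each clock gene, against the distance in kb in the direction of transcription. POL2 summits stand near the TSS at most genes, and MYC triangles are at NR1D2 and BHLHE40 only.

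Over the members, 4 of 65 POL2 promoter summits (6.15%) had CACGTG within 100 bp, at DBP and TEF, against 4.39% over coding genes. In gene bodies, more than 1 kb from a TSS of the gene, the members held 8, 0 and 1 POL2 summits in WT and 6, 6 and 6 in SLK-KO. The means were 3 ± 4.36 and 6 ± 0 summits (SD, n = 3). The WT libraries thus enclosed the SLK-KO values, and with lists of equal length the means did not differ (a difference of 0). NR1D1 had 2 such summits in WT replicate 1 and in each SLK-KO library, and NR1D2 had 3 in WT replicate 1 and 1, 2 and 1 in SLK-KO.

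By their presence in the 12 libraries, NR1D2 shared its pattern with 24 coding genes and BHLHE40 with 126. The genes with the closest percentiles were NKIRAS1 for NR1D2, with a mean absolute difference of 5.72 percentile points over 10 libraries, and NOP58, with 9.01. NKIRAS1 shares the promoter with NR1D2, so its summits are in part the same ones. For BHLHE40 they were NBN, with 1.06 over 7 libraries, and TMEM165, with 1.20.

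Of 17 other clock genes, 2 had a MYC promoter summit in at least 1 library, CIART and NAMPT, against 9.66% of coding genes. CIART, a repressor of CLOCK and BMAL1, had one in WT replicates 1 and 3, with ranks 333 of 365 and 248 of 267. It also had one in SLK-KO replicates 1 and 3, with ranks 897 of 1218 and 945 of 988. The scores were low, at 2.79 and 2.78 in WT and 4.01 and 2.01 in SLK-KO. NAMPT, the rate-limiting enzyme of NAD salvage, had one in SLK-KO replicates 1 and 3, with ranks 241 of 1218 and 729 of 988. POL2 promoter summits were in all 6 libraries for CLOCK, CIART, CSNK1D and NAMPT, and in none for RORA, RORB and HLF. CIART stood at 85.5 ± 11.2 for WT against 60.5 ± 10.0 for SLK-KO, and NAMPT at 20.7 ± 7.03 against 52.2 ± 13.5 (SD, n = 3; exact permutation p = 0.1, adjusted p = 0.335 for both). The 2 differences had opposite signs, and neither passed the adjusted threshold. CLOCK, the partner of BMAL1, stood at 38.6 ± 7.23 in WT and 65.4 ± 17.7 in SLK-KO, with WT better and the same p.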

How the data were processed

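Only the lists deposited for the 12 MYC and POL2 libraries were used, and the IgG and Input libraries were not analysed here. Per the labels, reads were processed with nf-core/chipseq 2.1.0 against GRCh38.p14. The submitters' processing notes name BWA 0.7.18-r1243 and MACS3 3.0.1. The control library and the calling options are not given in the sources used here. The authors' deposited score is −log10 of a q-value from each library's own peak calling, read so because the lowest score in any list was 1.3019. Read depth is unknown, and no floor or counting interval was given.

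Genes, transcripts and transcription start sites (TSSs) came from GENCODE release 44 on GRCh38, sequence from the matching genome, and 300-base promoters from RefSeq (GRCh38.p14). All 10 genes matched both. The members, the other clock genes and the marker lists were chosen with earlier results of these data known, so counts over the members carry no p-value. All 10 members are named. Of the 17 other clock genes, those with a MYC promoter summit are named, and some others are named for their POL2 summits. Values of some genes of the clock and marker lists are not reported here. For members with a MYC summit, the 2 coding genes with the same presence over 12 libraries and the nearest percentiles are named.

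For each library and coding gene the best-scored summit within 1 kb of a TSS was taken. It was expressed as a percentile among the genes with such a summit in all 6 libraries of the antibody. All libraries were thus ranked on the same genes. The set itself depends on list length, with 3615 genes for POL2 and 6567 without WT replicate 2. Genotypes were compared per gene by an exact two-sided permutation of the 6 library labels (20 relabellings, smallest possible p 0.1), with Benjamini-Hochberg adjustment over all 3615 POL2 genes. The procedure was tested on simulated data. Libraries with the same number showed no shared deviation (correlations 0.00888, 0.00907 and -0.0164 for POL2), so no pairing was used in the main comparisons. Alternatives were other windows, the canonical TSS, a score minimum of 5, lists of equal length (201 MYC and 5047 POL2 summits), blocking on the replicate number, and omitting single libraries. The software was samtools 1.23.1 and Python 3.11.15 with pysam 0.24.0, scipy 1.17.1, pandas 2.3.3, numpy 2.4.6 and, for figures, matplotlib 3.10.9.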

Additional observations from a re-analysis of the deposited data

How the results depend on the processing

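The MYC difference between genotypes over the 10 genes, 1 gene in the means, was 0 with a score of at least 5 and -0.333 with lists of equal length, and 0.667 to 1.33 when each library was left out. Genes with MYC in at least 1 library fell from 2 to 1 with a 500 bp window, a score of at least 5, equal lists or without SLK-KO replicate 1 (1 to 2 over libraries left out). With a 2 kb window BHLHE40 had MYC in 2 SLK-KO libraries. The count with MYC in 3 SLK-KO and 0 WT libraries was 0, and 1 without WT replicate 3 (0 to 1); that with POL2 was 0, and 1 with equal lists or without WT replicate 1 (0 to 1). Genes with POL2 in all 6 libraries numbered 3 at the canonical TSS only, and 5 to 7 with a library left out. The POL2 difference was 0.667 to 2.67 genes over all settings. In gene bodies it was 1.5 to 5.5 summits with a library left out, 1.33 with a score of at least 5 and 0 with equal lists. MYC summits with CACGTG nearby numbered 2 with a score of at least 5 and 1 with equal lists; genes with CACGTG numbered 5 in a 250 bp window. The rank difference was 6.15 for PER2 without WT replicate 2 (-12.5 to 6.15 over libraries left out), -1.09 for BHLHE40 in the whole list, and 0.458 for CRY2 without WT replicates 1 and 2, from -3.04 without WT replicate 2 alone (-4.89 to 0.458 with a further library left out). The cause was not tested, except that shorter lists and fewer libraries hold fewer summits by construction. The rank difference also changed in size: PER2 had -21.4 in the whole list, and CRY1, NR1D2 and BHLHE40 had -6.41, -3.59 and 3.06 without WT replicate 2. The last 3 values are on a larger set of genes, which shifts the percentiles by itself. Of the other alternatives, 82 for counts moved by less than 1 SD or 1.5 times, gene-body summits included, and 63 for single genes kept their sign. No member could be ranked for MYC, and some settings gave no value for single genes. The replicate numbers did not pair the libraries (correlations of -0.218, -0.0958 and -0.127 for MYC). With the replicate number as a block the differences were 1 gene (MYC), 1.67 genes and 3 gene-body summits (POL2). These equal the main ones by construction, so this setting, counted among the alternatives above, could not move a difference. The smallest p by sign flips was 0.25. Depth is unknown and limits what a missing summit can show.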

Other observations

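Of the 121 coding genes with at least 3 CACGTG strings in a span of 165 bp near a TSS, 22 had a MYC promoter summit in at least 1 library. Of the 28 that also had POL2 in all 6 libraries, 12 did, NR1D2 among them. The span was that of the strings at NR1D2, so NR1D2 was in this class by construction. The share with MYC was 9.66% over coding genes. It was 29.1% over those with POL2 in all 6 libraries, and 35.7% where these also held CACGTG. Whether the clustering of strings matters was not tested.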
